A study of Mus musculus with 6 samples.

Results

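The genes described here are the fibroblast growth factor (FGF) genes of the mouse, their receptors, and the feedback genes of the same route, as carried by a 2-colour expression array. Members were taken by gene name from the probes other than control spots. They are all genes named Fgf followed by a number, Fgfr1 to Fgfr4, Fgfrl1, the Spry and Spred genes, Etv1, Etv4, Etv5, Dusp4 and Dusp6. The rule gave 38 genes, read by 67 of the 41174 probes, among 27962 names on the array. Of these, 21 are Fgf genes, made up of 17 secreted ligands and the 4 intracellular FGF homologous factors Fgf11 to Fgf14.

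FGFs are secreted ligands that bind receptor tyrosine kinases together with heparan sulphate. The receptors signal through the adaptor Frs2 and the Ras-MAPK kinases, which switch on the ETS factors of the Etv1, Etv4 and Etv5 group and a set of inhibitors: Sprouty (Spry) and Spred proteins damp Ras-MAPK signalling and Dusp4 and Dusp6 remove phosphate from the MAP kinases. In the mouse embryonic kidney, Fgf9 and Fgf20 keep nephron progenitors, Fgf8 is needed as nephrons form, Fgf7 and Fgf10 act on the branching ureteric bud through Fgfr2, and Spry1 restrains the Ret signal in the duct.

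The kidneys came from CD1 mouse embryos, an outbred stock, at E13.5, and were cultured whole on filters over serum medium. Scriptaid, which blocks histone deacetylases (HDACs), the enzymes that take acetyl groups off histones, was given at 2.0 µg/ml for 6 hours, and Nullscript, its inactive structural relative, at the same concentration and for the same time to the partner kidney. RNA of both treatments was hybridised to the same array, and each of 3 biological replicates was measured on 2 arrays with the dyes exchanged, 6 arrays in all. The labels do not say how many embryos a replicate pooled, so the p-values measure the spread between these 3 replicates. An explant holds ureteric bud, nephron progenitors, stroma, vessels and blood, and in such bulk RNA fewer cells of a type and less RNA per cell cannot be told apart.

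Of the 43379 spots other than controls, 91.5% to 96.5% per channel were well above background. The 2 arrays of a replicate, their signs turned, correlated at 0.752 to 0.857 over probes. Between replicates, arrays of 1 dye orientation correlated at 0.871 to 0.943, so dye orientation separated the arrays more than replicate did, and the arrays of each replicate were averaged over both orientations. Replicates 1 and 2 shared a slide and replicate 3 lay on another. The arrays' dye fields name the drug of each channel. These fields were followed, and "Scriptaid channel" below means the channel labelled with that drug.

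The direction of the ratios is not settled. By the dye fields, all 5 tested genes of a list that rises with HDAC inhibitors in other cells were lower in the Scriptaid channel, among them Hist1h1c, a linker histone gene, with a log2 ratio of -1.72 ± 0.06 (SD, n = 3), and 4 of 5 genes of a list that falls in other cells were higher. Eya1 and Wt1, genes of nephron progenitors, had ratios of 1.64 ± 0.18 and 0.97 ± 0.07, and a dimmer Eya1 probe gave 0.48. These ratios lie on the side opposite to the loss that the study is known to describe for these genes under HDAC inhibition. The deposited value table follows the dye fields. Were the drug names exchanged, every sign below would turn, and the sizes, errors and p-values would stay as they are.

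Of the 38 member genes, 37 were tested. Fgf16 was not well above background on any array. Each gene was read by its brightest probe, and its mean log2 ratio over the 3 replicates was tested against 0 with limma, with p-values adjusted over all 39392 probes tested and calls made at an adjusted p under 0.05. In the Scriptaid channel 12 members were higher and 6 lower, and 19 were not called. Of all 26765 genes tested in the same way, 45.4% were called, 22.2% as higher and 23.1% as lower. The share of members called, 18 of 37, lies near that background and is no result about the FGF genes as a set. Read by probe, 19 of 65 tested member probes were higher and 8 lower, against 45.2% of all probes called, 23.5% as higher and 21.8% as lower. The median log2 ratio of the members was 0.03, against -0.01 for all genes tested.

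The calls are given by role. All 8 calls among the ETS factors and the inhibitors were higher in the Scriptaid channel, 2 of 3 ETS factors and 6 of 9 inhibitors, with medians of 0.66 and 0.39. Among 16 ligands 2 were higher and 3 lower, among 4 homologous factors 1 and 1, and among 5 receptors 1 and 2, with medians of -0.03, 0.04 and 0.03. Of all genes 22.2% were higher and 23.1% lower. Counts and medians describe these small lists, and no difference between the roles was tested. A called difference of at least 1.5-fold was found for 5 members (Fgf11, Etv1, Spred2, Etv4 and Spry2), against 10.9% of all genes. The signals of the drugs did not overlap between replicates for 11 members that were higher and 3 that were lower in the Scriptaid channel, against 33.9% of all genes in either direction. Within the slide of replicates 1 and 2, that is without replicate 3, 6 members were called higher and 2 lower, against 29.6% of all probes called in either direction. With the slide as a block the counts were 9 and 3, against 19.5% and 16.6% of all probes. The median absolute log2 ratio was 0.41 for called members and 0.36 for all called genes.

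**Figure D1:**
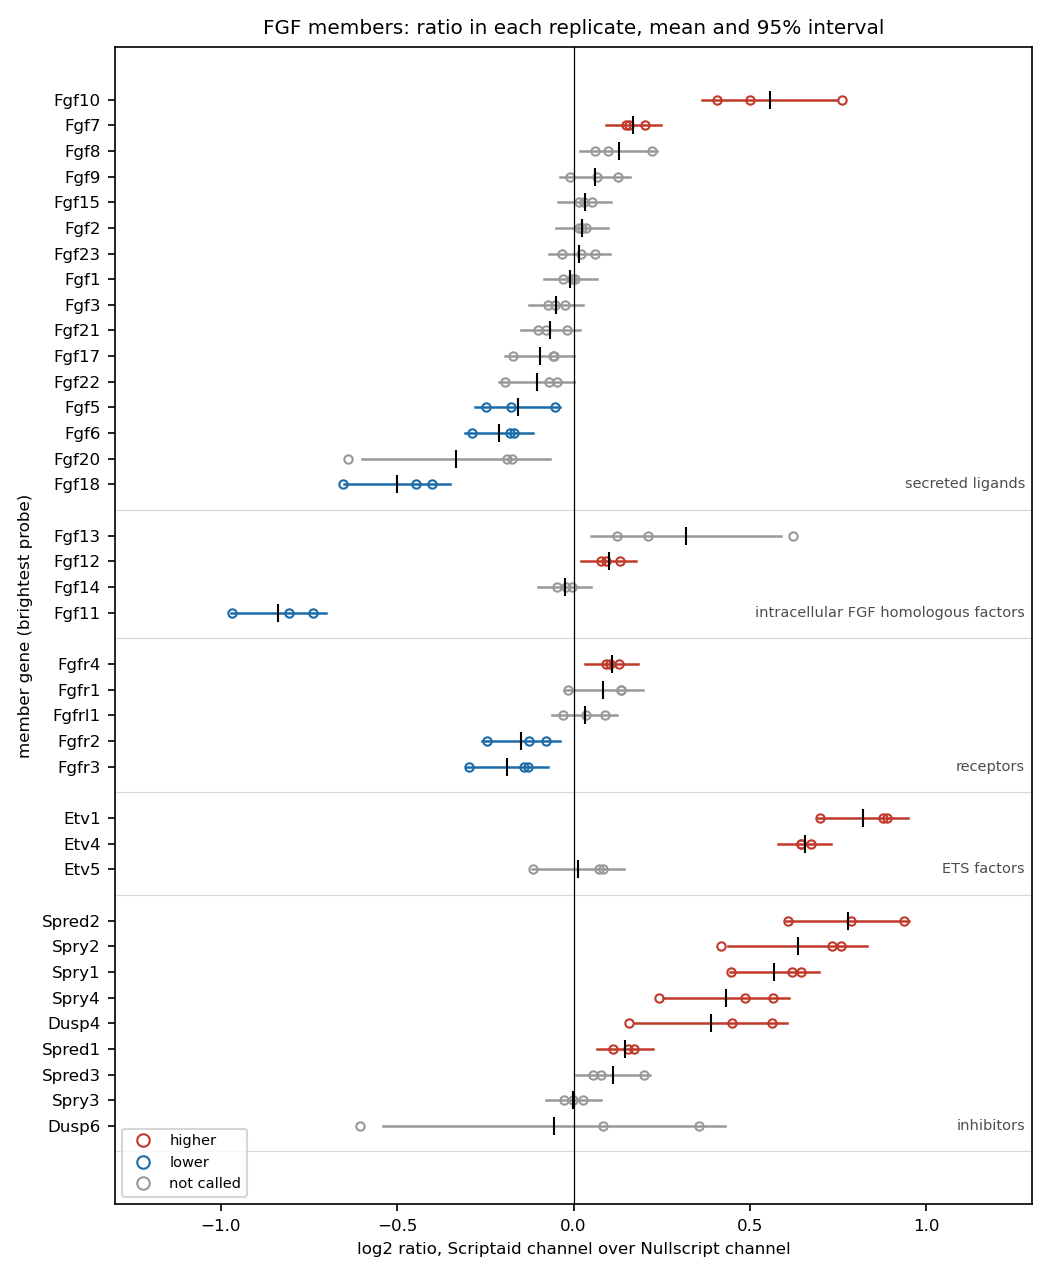
Log2 ratio of the Scriptaid channel over the Nullscript channel (x axis) for the 37 tested member genes (y axis, grouped by role), each read by its brightest probe. Circles are the 3 replicates, ticks their mean and lines the 95% interval of the limma fit. Red and blue mark genes called higher and lower at an adjusted p under 0.05. The means of the ETS factors and inhibitors lie to the right of 0 apart from Spry3 and Dusp6, with Etv5 close to 0, while Fgf11 and Fgf18 lie farthest to the left.

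Etv1, an ETS factor gene, gave log2 signals of 11.29, 11.07 and 11.24 in the Scriptaid channel of replicates 1, 2 and 3, against 10.41, 10.37 and 10.35 in the Nullscript channel. All 3 Scriptaid signals lay above all 3 Nullscript signals. The log2 ratio was 0.82 ± 0.11 (SD, n = 3; 1.77-fold, adjusted p = 0.00037), the largest positive one among the members. Etv4, which acts with Etv5 downstream of Ret and FGF receptors in the ureteric bud tip, had signals of 10.92, 10.51 and 10.80 in the Scriptaid channel, against 10.24, 9.87 and 10.16 in the Nullscript channel. The channels did not overlap, and the ratio within each array pair was nearly the same in every replicate: 0.67, 0.65 and 0.65. Its mean of 0.66 ± 0.02 had an adjusted p of 0.000228 (1.58-fold).

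Etv5, the partner of Etv4 in the bud tip, was not called. Its signals were 8.79, 9.07 and 8.86 in the Scriptaid channel and 8.91, 9.003 and 8.78 in the Nullscript channel, so the groups overlapped. The ratio was 0.01 ± 0.11 (adjusted p = 0.862, 95% interval -0.12 to 0.14). A second Etv5 probe gave 0.17 ± 0.17, also not called (adjusted p = 0.116). In both Etv5 probes replicate 1 had the lowest ratio, below 0.

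**Figure D2:**
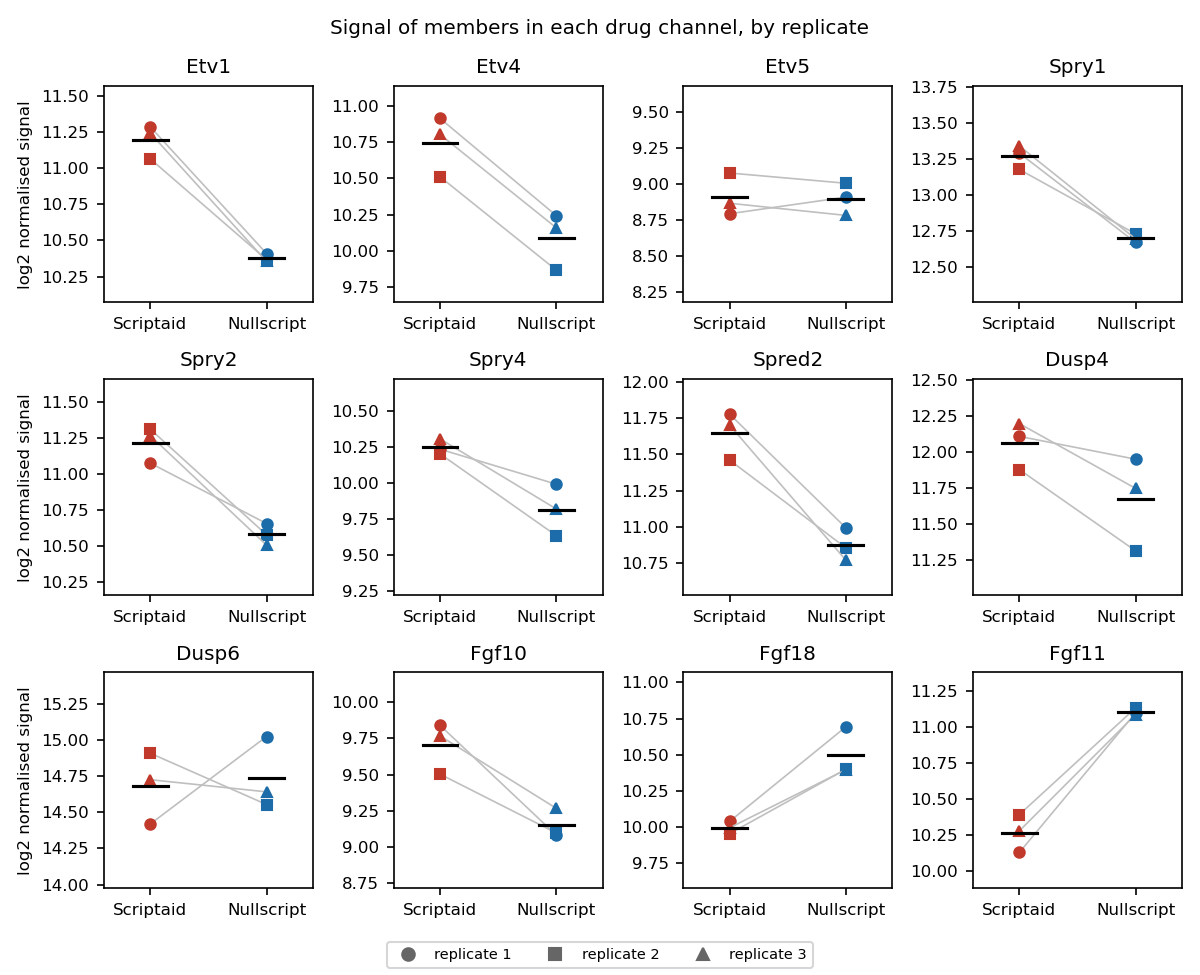
Log2 normalised signal (y axes, each spanning its own range) of 12 members in the Scriptaid channel (left, red) and the Nullscript channel (right, blue). Symbols mark replicates 1, 2 and 3, grey lines join the channels of a replicate and bars are means. In Etv1, Etv4, Spry1, Spry2, Spry4, Spred2 and Fgf10 all Scriptaid signals lie above all Nullscript signals, in Fgf18 and Fgf11 below, and in Dusp6 replicate 1 runs the opposite way to replicates 2 and 3.

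Spry1, the Sprouty that restrains Ret signalling in the kidney, had log2 signals of 13.29, 13.18 and 13.34 in the Scriptaid channel, against 12.67, 12.73 and 12.70 in the Nullscript channel. The channels were separated in all replicates by more than their spread. The log2 ratio was 0.57 ± 0.11 (SD, n = 3; 1.48-fold, adjusted p = 0.000904). Spry4, another Sprouty, had 10.23, 10.20 and 10.30 in the Scriptaid channel, against 9.99, 9.63 and 9.82 in the Nullscript channel. These did not overlap either, and the smallest gap was in replicate 1. The ratio of 0.43 ± 0.17 had an adjusted p of 0.0063, and without replicate 3 the value was 0.40 with an adjusted p of 0.0514. A second, dim Spry4 probe, well above background on 3 arrays, gave 0.03 and was not called. Spry3 had a ratio of -0.00 ± 0.03 and was not called.

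For Spry2, an inhibitor of receptor tyrosine kinase signalling, the probes disagreed. The brightest probe was designed on an expressed sequence tag. It gave 11.08, 11.31 and 11.27 in the Scriptaid channel and 10.66, 10.58 and 10.51 in the Nullscript channel, without overlap, and a log2 ratio of 0.64 ± 0.19 (1.55-fold, adjusted p = 0.0024). The other probe, designed on the RefSeq transcript and of similar brightness, gave 10.58, 10.93 and 10.68 in the Scriptaid channel and 10.64, 10.90 and 10.74 in the Nullscript channel. These signals overlapped, and the ratio was -0.03 ± 0.05 (adjusted p = 0.567, 95% interval -0.11 to 0.06). With the tested probes of a gene averaged, Spry2 had a ratio of 0.30 and kept its call. The call of Spry2 therefore rests on 1 of 2 probes.

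Both probes of Spred2, a membrane-bound inhibitor of Ras-MAPK signalling, were higher in the Scriptaid channel. The brightest gave 11.78, 11.46 and 11.70 in the Scriptaid channel, against 10.99, 10.85 and 10.77 in the Nullscript channel, with no overlap. Its log2 ratio was 0.78 ± 0.16 (SD, n = 3; 1.71-fold, adjusted p = 0.000923), and the dimmer probe gave 0.64 ± 0.27 (adjusted p = 0.00671). Spred1, a related inhibitor, had 12.17, 12.12 and 12.08 in the Scriptaid channel and 12.06, 11.97 and 11.91 in the Nullscript channel. These ranges did not overlap, but the ratio was small at 0.15 ± 0.03 (1.11-fold, adjusted p = 0.015). Without replicate 2 the adjusted p was 0.0639 and without replicate 3 it was 0.117. Of the other Spred1 probes one was called at 0.18 and one, at 0.06, was not. Spred3 had a ratio of 0.11 ± 0.08 (adjusted p = 0.0834).

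The dual-specificity phosphatases differed between replicates. Dusp4, which acts on MAP kinases in the nucleus, had 12.11, 11.88 and 12.19 in the Scriptaid channel and 11.95, 11.31 and 11.75 in the Nullscript channel. The ranges overlapped, although the ratio was positive in each replicate at 0.16, 0.56 and 0.45. Its mean of 0.39 ± 0.21 had an adjusted p of 0.0162, its second probe gave 0.31 ± 0.22 (adjusted p = 0.0394), and leaving out replicate 2 or replicate 3 gave adjusted p values of 0.0524 and 0.1.

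Dusp6, the phosphatase of cytoplasmic ERK and a common readout of FGF signalling, gave 14.42, 14.91 and 14.73 in the Scriptaid channel, against 15.03, 14.55 and 14.64 in the Nullscript channel. Replicate 1 was lower in the Scriptaid channel by more than replicates 2 and 3 were higher. The ratios of -0.61, 0.36 and 0.08 averaged -0.06 ± 0.50, the widest spread of any member (median SD 0.08), with a 95% interval of -0.54 to 0.43 and an adjusted p of 0.845. Without replicate 1 the ratio was 0.22, also not called. These 3 replicates therefore do not settle a direction for Dusp6.

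Replicate 1 also had the lowest ratio of the 3 for Dusp4, Spry2, Spry4, Etv5 and Fgf20. Immediate early genes of the same route, lower in the Scriptaid channel, were lowest there too: Egr1 had ratios of -2.22, -0.80 and -1.32, and Fos -1.99, -1.01 and -1.57. Dusp2, a phosphatase gene of the same kind, had -1.60, -0.67 and -0.90. Among response genes higher in the Scriptaid channel, Myc, Ccnd1 and Elk3 had their highest ratio in replicate 1. Their ratios were 2.01, 1.45 and 1.68 for Myc, 2.04, 1.69 and 1.97 for Ccnd1 and 1.61, 1.34 and 1.36 for Elk3. Not all response genes had this order. Bhlhb2 (0.83, 0.80 and 0.86) and Phlda1 (0.20, 0.23 and 0.26) were highest in replicate 3. Dusp14, lower in the Scriptaid channel, was lowest in replicate 3 (-0.77, -0.77 and -0.93). Replicate 1 thus held the ratio farthest from 0 in Egr1, Fos, Dusp2, Myc, Ccnd1 and Elk3. In Dusp4, Spry2 and Spry4 it held the ratio nearest to 0. Etv1, Spry1 and Spred2 were not lowest in replicate 1. Over all 37 members tested, replicate 1 was lowest in 19. The share among all genes was not counted, so this figure is not particular to the members. The part of such a replicate difference in the results of single genes was not tested.

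Among the secreted ligands, 11 of 16 tested were not called. Fgf10, a ligand of the mesenchyme that acts on the ureteric bud, is read by 1 probe printed in 10 spots per array. It gave 9.84, 9.50 and 9.77 in the Scriptaid channel, against 9.08, 9.095 and 9.27 in the Nullscript channel. All Scriptaid signals were higher. The log2 ratio was 0.56 ± 0.18 (SD, n = 3; 1.47-fold, adjusted p = 0.00338), while the spots of this probe on an array had an SD of 0.03 to 0.06. Fgf7, the related ligand that also binds the Fgfr2 form of epithelia, had 6.98, 6.94 and 6.80 in the Scriptaid channel and 6.78, 6.79 and 6.64 in the Nullscript channel. The ranges came close without crossing, and the ratio was 0.17 ± 0.03 (adjusted p = 0.00896). Fgf7 is a dim probe: with median centring in place of loess its ratio was -0.00 and the call was lost, and without replicate 3 the adjusted p was 0.0673.

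Fgf18, a ligand known from lung and bone development, was lower in the Scriptaid channel. Its signals were 10.04, 9.95 and 9.99 there, against 10.69, 10.40 and 10.40 in the Nullscript channel, with no overlap. The log2 ratio was -0.50 ± 0.14 (1.42-fold lower, adjusted p = 0.00215). Fgf20, the ligand that sustains nephron progenitors, had 8.76, 8.46 and 8.66 in the Scriptaid channel and 9.40, 8.65 and 8.83 in the Nullscript channel. Here the ranges overlapped and replicate 1 was apart, with ratios of -0.64, -0.19 and -0.17. The mean of -0.33 ± 0.26 missed the threshold (adjusted p = 0.0521). Fgf20 passed in 10 of 18 alternative analyses. Among them were the fit of 6 arrays with the replicate as a block (adjusted p = 0.0113) and the fit without replicate 1 (-0.18, adjusted p = 0.0181). The block fit used a shared correlation of 0.119 between arrays of a replicate, so it counted the 6 arrays nearly as separate replicates. For Fgf20 the 2 arrays of a replicate lay close, at -0.71 and -0.57, -0.19 and -0.19, and -0.14 and -0.21.

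Fgf9, which works with Fgf20 on nephron progenitors, had 9.99, 10.06 and 9.99 in the Scriptaid channel and 10.00, 9.99 and 9.86 in the Nullscript channel. These overlapped, and the ratio of 0.06 ± 0.07 was not called (adjusted p = 0.269). Fgf8, needed for the survival of newly forming nephrons, had 10.83, 10.99 and 10.85 in the Scriptaid channel, against 10.77, 10.77 and 10.75 in the Nullscript channel. All Scriptaid signals were higher, yet by little. The log2 ratio was 0.13 ± 0.09 (adjusted p = 0.0648), and a dimmer second probe had the same size of ratio, 0.13 ± 0.07, and was called (adjusted p = 0.0472).

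Fgf1 and Fgf2, ligands without a classical secretion signal, had ratios of -0.01 ± 0.02 and 0.03 ± 0.01 and were not called. Their other probes gave 0.07 and 0.11, also not called. Fgf5, known from hair growth, had -0.16 ± 0.10 (adjusted p = 0.0444) and lost its call without replicate 1 (adjusted p = 0.126) or replicate 3 (adjusted p = 0.2). Its mean ratio was -0.30 on the arrays with Scriptaid in Cy3 and -0.02 on those with Scriptaid in Cy5. Fgf6, a ligand of muscle read by probes on a predicted transcript, had -0.21 ± 0.07 by the brightest (adjusted p = 0.0085) and -0.02 by the other. Without replicate 3 the adjusted p of the brightest was 0.0521. For Fgf22 the dimmer probe was called at -0.32 ± 0.03 (adjusted p = 0.0012) and the brightest, at -0.10 ± 0.08, was not (adjusted p = 0.102). Fgf3, Fgf15, Fgf17, Fgf21 and Fgf23 lay between -0.10 and 0.03 and were not called.

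Fgf11 had the largest difference of all members. It is an intracellular FGF homologous factor, a family that is not secreted and binds voltage-gated sodium channels. The brightest probe gave 10.13, 10.39 and 10.28 in the Scriptaid channel, against 11.10, 11.13 and 11.09 in the Nullscript channel, with a wide gap between the channels. The log2 ratio was -0.84 ± 0.12 (SD, n = 3; 1.79-fold lower, adjusted p = 0.00041). A second probe on the RefSeq transcript gave 9.47, 9.19 and 9.57 in the Scriptaid channel and 9.45, 9.16 and 9.67 in the Nullscript channel. These overlapped fully, and the ratio was -0.02 ± 0.07 (adjusted p = 0.792). As for Spry2, the call rests on 1 of 2 probes.

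The other homologous factors had smaller ratios. Fgf12 had a ratio of 0.10 ± 0.03 by its brightest probe (adjusted p = 0.0479) and 0.28 ± 0.06 by the other (adjusted p = 0.00306). The first call was lost under 11 of 18 alternatives, including each omission of a replicate (adjusted p = 0.106 to 0.195). Fgf13 had 0.62, 0.21 and 0.12 in replicates 1, 2 and 3. Its mean of 0.32 ± 0.27 was not called (adjusted p = 0.0609), while without replicate 1 it was 0.17 with an adjusted p of 0.0352. Its dimmer probes gave 0.11 ± 0.01, called, and 0.01, not called. Fgf14 had -0.03 ± 0.02, with 0.02 and 0.03 by other probes, none called.

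**Figure D3:**
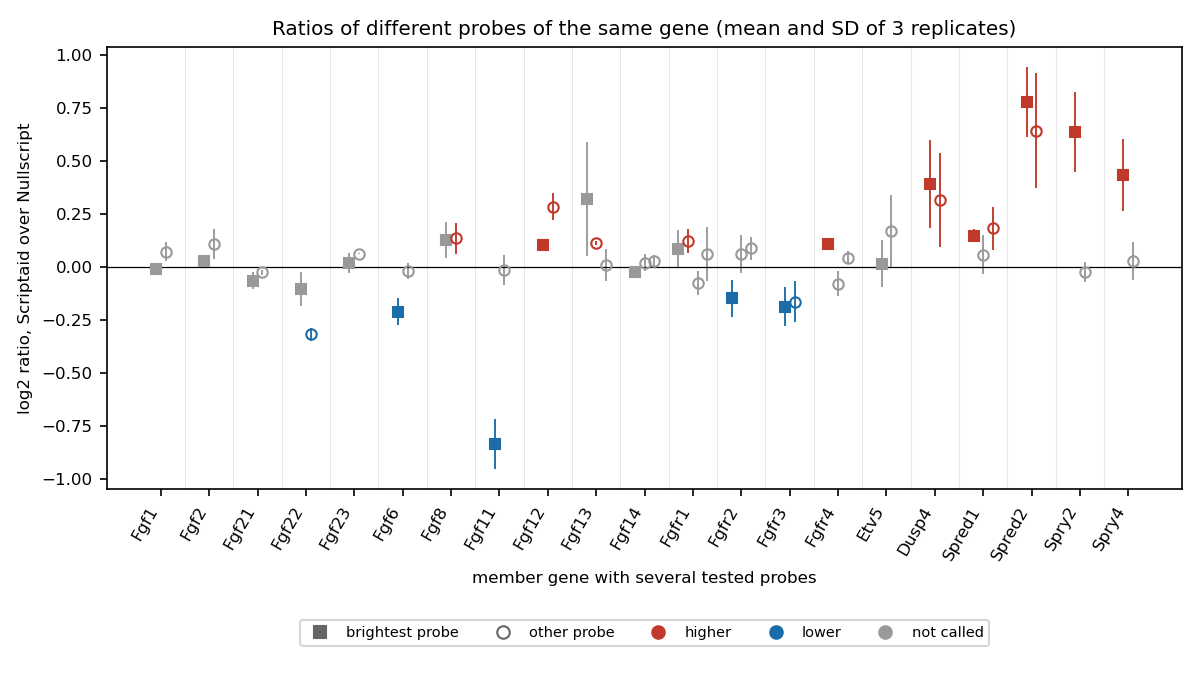
Log2 ratio of the Scriptaid channel over the Nullscript channel (y axis) for each tested probe of the 21 member genes with several tested probes (x axis). Squares are the brightest probe of a gene and circles the others, with the mean and SD of 3 replicates, red and blue marking calls. The probes of Fgf11, Spry2 and Spry4 lie far apart, while those of Spred2, Dusp4 and Fgfr3 lie together.

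All 21 member genes with several probes had more than 1 tested. Their probes shared 1 call in 10 genes, and in 4 of these (Dusp4, Spred2, Fgf12 and Fgfr3) all tested probes were called in the same direction. In 11 genes some probes were called and others not, and none had probes called in opposite directions. For called members, 10 of 14 further probes (71.4%) had the sign of the brightest probe. Over all genes the share was 85.2% of 7736 further probes. Probes of a gene can read different transcript forms. Which forms these probes read was not analysed here.

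The receptors differed little. Fgfr1, the main receptor of the mesenchyme, had 9.93, 9.58 and 9.66 in the Scriptaid channel and 9.94, 9.45 and 9.53 in the Nullscript channel by a probe printed in 10 spots. The channels overlapped, and the ratio was 0.08 ± 0.09 (adjusted p = 0.183). Of its 3 other probes one was called at 0.12 ± 0.06 (adjusted p = 0.0458) and the others, at -0.08 and 0.06, were not. Without replicate 1 the brightest probe had 0.13 with an adjusted p of 0.0424.

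Fgfr2, the receptor of Fgf7 and Fgf10 in the ureteric bud, had 11.65, 11.61 and 11.69 in the Scriptaid channel and 11.89, 11.69 and 11.81 in the Nullscript channel. The channels overlapped by a narrow margin, since the lowest Nullscript signal reached the highest Scriptaid one. The ratio was -0.15 ± 0.09 (1.11-fold lower, adjusted p = 0.0409). The other Fgfr2 probes, one of them printed in 10 spots, gave 0.06 and 0.09 and were not called, and the call of the brightest was lost without replicate 1 (adjusted p = 0.0988) or replicate 3 (adjusted p = 0.146).

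Fgfr3 was lower in the Scriptaid channel by both tested probes, at -0.19 ± 0.09 (adjusted p = 0.023) and -0.17 ± 0.10 (adjusted p = 0.0382). By the brightest, the signals were 10.65, 10.74 and 10.66 in the Scriptaid channel, against 10.79, 11.04 and 10.79 in the Nullscript channel, without overlap. The call of the brightest was lost without replicate 2 (adjusted p = 0.0609) or replicate 3 (adjusted p = 0.0719). Fgfr4 had 0.11 ± 0.02 (adjusted p = 0.0347), with -0.08 and 0.04 by other probes, and lost its call without any one replicate (adjusted p = 0.0917 to 0.168). Fgfrl1, a receptor that lacks the kinase and is needed for nephron formation in the mouse, had 0.03 ± 0.06 and was not called (adjusted p = 0.538).

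**Figure D4:**
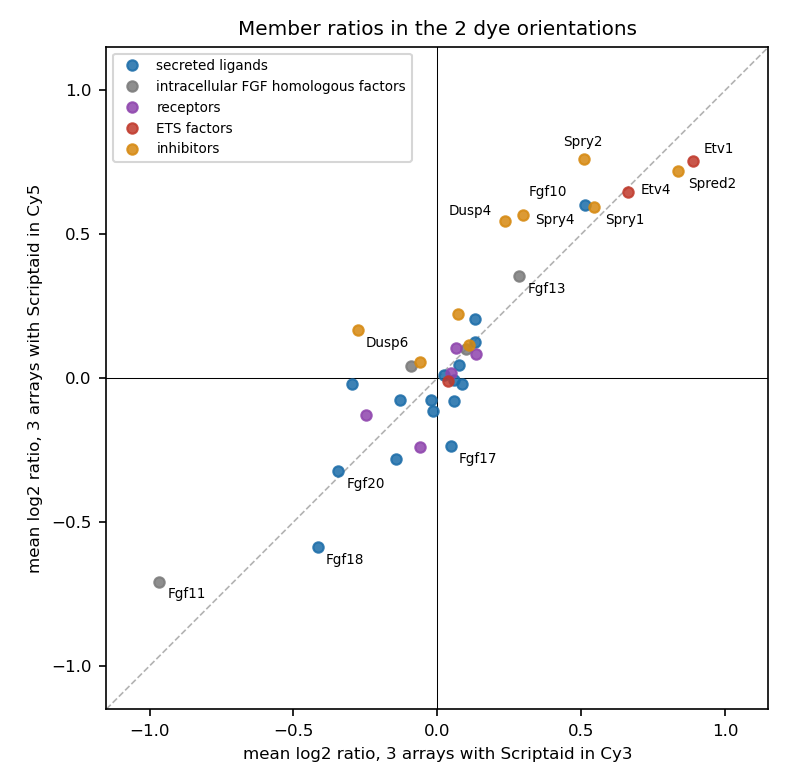
Mean log2 ratio of the 37 tested members on the 3 arrays with Scriptaid in Cy3 (x axis) and on the 3 arrays with Scriptaid in Cy5 (y axis), coloured by role, with a dashed line of equality. The members with large ratios lie near the line on the same side of 0 in both orientations, while Dusp6 and Fgf17 lie on opposite sides. With smaller means, Etv5, Fgf1, Fgf2, Fgf14, Fgf15 and Spry3 also lie on opposite sides.

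The dye orientations gave the same side for the members with large ratios. On the 3 arrays with Scriptaid in Cy3 alone, 7 members were called higher and 4 lower, against 20.1% and 17.0% of all probes. On the arrays with Scriptaid in Cy5 alone these counts were 11 and 6, against 23.4% and 19.1% of all probes. Dusp4 had a ratio of 0.23 on the Cy3 arrays, where it was not called (adjusted p = 0.137).

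Promoter windows of 250 bases before the annotated start were taken from RefSeq on GRCm38.p6 for 27 of the 38 members, 36 windows in all. The window was searched on both strands for the ETS site CCGGAAGT and for the GC box GGGCGG, the site of Sp1-type factors; neither motif contains the other. The ETS site was found in 1 of 36 member windows (2.78%, that of Fgfrl1), against 2.88% of 32851 windows of all genes. A GC box was found in 22 of 36 (61.1%), against 32.7% of all windows, and some genes give more than 1 window. The windows of a pair of inhibitors and a pair of ligands with non-overlapping signals, Spry1, Spred2 and Fgf10 (higher in the Scriptaid channel) and Fgf18 (lower), are shown because each holds 1 GC box, in capitals, read as GGGCGG on the shown strand or as CCGCCC where it lies on the other. They come from chr3:37639697-37639946 on the plus strand, chr11:19924192-19924441 on the plus strand, chr13:118714449-118714698 on the plus strand and chr11:33147401-33147650 on the minus strand, in that order, each written 5′ to 3′ toward its gene.
Spry1: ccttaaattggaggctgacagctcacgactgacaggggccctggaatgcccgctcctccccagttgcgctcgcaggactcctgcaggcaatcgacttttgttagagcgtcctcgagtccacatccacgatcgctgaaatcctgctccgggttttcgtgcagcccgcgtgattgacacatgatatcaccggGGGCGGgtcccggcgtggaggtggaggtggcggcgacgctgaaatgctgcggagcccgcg
Spred2: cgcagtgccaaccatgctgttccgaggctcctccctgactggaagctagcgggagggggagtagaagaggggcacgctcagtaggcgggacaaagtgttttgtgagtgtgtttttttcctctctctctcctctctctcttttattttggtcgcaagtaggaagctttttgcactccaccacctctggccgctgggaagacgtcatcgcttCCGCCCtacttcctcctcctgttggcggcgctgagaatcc
Fgf10: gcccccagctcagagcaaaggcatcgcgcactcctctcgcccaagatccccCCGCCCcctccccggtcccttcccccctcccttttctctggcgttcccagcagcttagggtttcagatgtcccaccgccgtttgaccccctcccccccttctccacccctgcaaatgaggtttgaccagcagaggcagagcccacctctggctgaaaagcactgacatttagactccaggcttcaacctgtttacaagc
Fgf18: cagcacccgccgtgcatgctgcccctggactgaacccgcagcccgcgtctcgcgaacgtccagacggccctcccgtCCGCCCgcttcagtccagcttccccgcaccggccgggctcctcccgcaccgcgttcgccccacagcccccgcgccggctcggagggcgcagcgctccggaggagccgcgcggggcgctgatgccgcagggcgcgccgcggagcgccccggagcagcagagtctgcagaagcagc

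The GC box lies 60 bases before the start in Spry1, 40 in Spred2, 199 in Fgf10 and 174 in Fgf18, so members on both sides of 0 hold it. The windows of Etv1, Fgf11 and Spry2 hold neither motif. A match is a run of letters and does not show that a factor binds there.

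The other genes of the route were read from 3 lists. Of 68 tested, 28 were higher and 22 lower in the Scriptaid channel, with a median log2 ratio of 0.05, against 22.2% higher and 23.1% lower among all genes. As in the members, each list holds genes in both directions, and whether the lists differ from other genes was not tested. Among 26 adaptors and Ras-MAPK kinases 12 were higher and 8 lower. Sos2, an exchange factor that loads Ras, had 0.75 ± 0.18, while Grb2, the adaptor that brings Sos to receptors, had -0.76 ± 0.06. Rasa1, which switches Ras off, had 0.66 ± 0.19, with -0.02 by its other probe.

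Of 24 co-receptors, FGF-binding proteins and heparan sulphate genes, 10 were higher and 7 lower. Sulf2, which trims sulphate from heparan sulphate outside the cell, had a log2 ratio of 1.10 ± 0.20 (adjusted p = 0.000617). Cdh2, a cadherin that can bind FGF receptors, had 0.80 ± 0.22, with 0.03 to 0.10 by other probes. Sdc2, a heparan sulphate carrier, had 0.77 ± 0.16. Hs6st2, which adds sulphate, had 0.73 ± 0.30, with 0.22 to 0.45 by other probes. Of 18 other feedback and response genes 6 were higher and 7 lower. Ccnd1, the G1 cyclin D1, had 1.90 ± 0.19 and Myc 1.71 ± 0.28, with 0.30 to 1.76 by other probes, against -1.52 ± 0.49 for Fos and -1.45 ± 0.71 for Egr1. All genes named from these lists were called, with adjusted p values of 0.0103 or lower, and all had the same sign in each replicate.

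**Figure D5:**
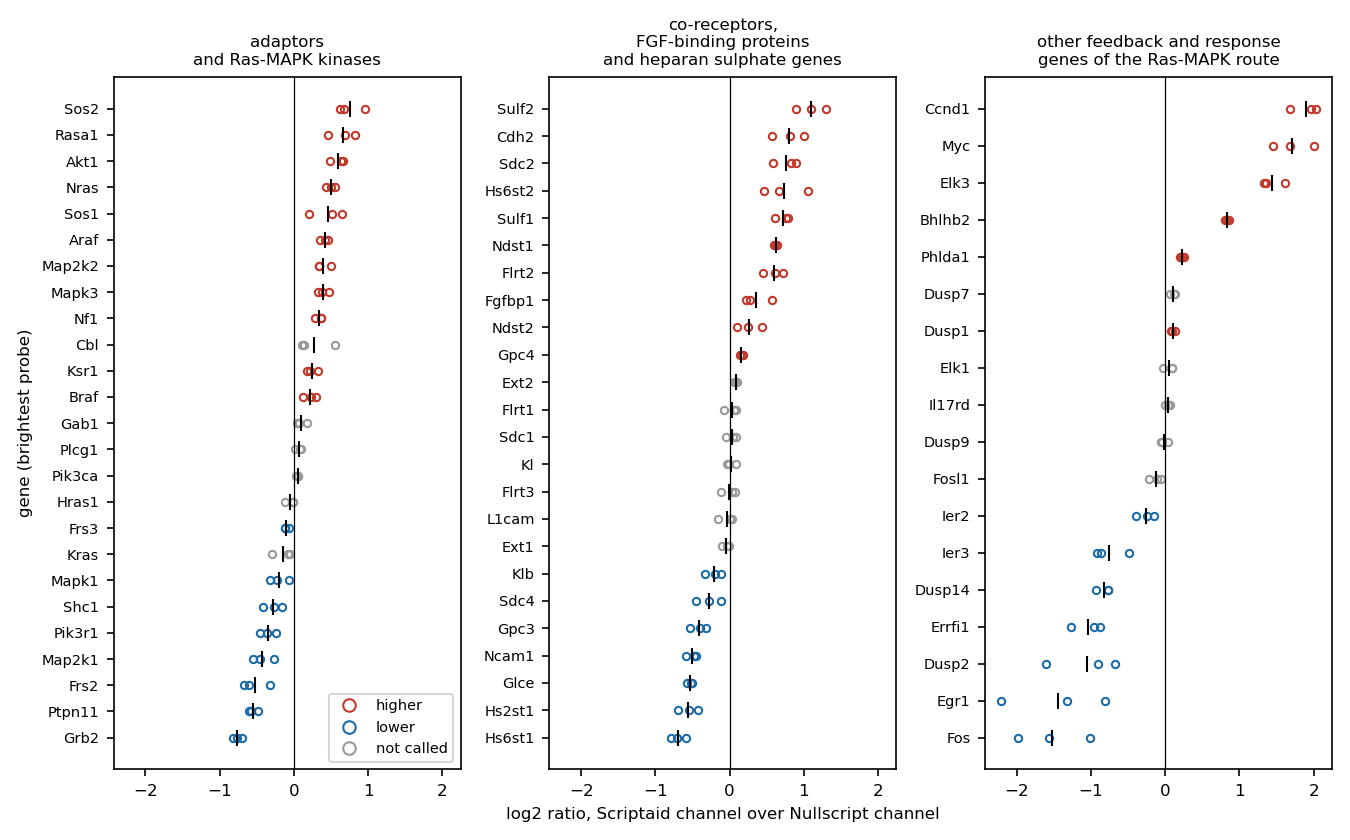
Log2 ratio of the Scriptaid channel over the Nullscript channel (x axis) for other tested genes of the FGF route that are reported here (y axes), in 3 lists. Circles are the 3 replicates, ticks their mean, and red and blue mark calls at an adjusted p under 0.05. Each list holds genes on both sides of 0, and Ccnd1 and Myc lie farthest to the right and Egr1 and Fos farthest to the left.

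Markers of the cells in the explant also differed between the channels. All 7 nephron progenitor markers, all 6 renal vesicle markers and 5 of 6 stromal markers were higher in the Scriptaid channel, and 1 stromal marker was lower. The summed log2 signal was 15.47 to 15.64 in the Scriptaid channel against 14.44 to 14.48 in the Nullscript channel for nephron progenitors, 14.77 to 14.82 against 13.74 to 13.94 for renal vesicles, and 16.45 to 16.57 against 16.26 to 16.46 for stroma. Of 7 ureteric bud markers 4 were higher and 1 lower, with sums of 15.10 to 15.31 against 14.88 to 14.998. Ret, the receptor of the bud tip, had a ratio of -0.01 ± 0.01 at mean log2 signals of 7.50 and 7.51 in the Scriptaid and Nullscript channels. Among the other bud markers, Emx2 had 0.98, Gata3 0.78, Calb1 0.36 and Wnt9b 0.25. Cdh1 had -0.68, and Wnt11, at 0.11, was not called.

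The sums lean on bright genes. Col1a1, the lower stromal marker, was saturated in 5 channels over the 6 arrays and had a mean log2 signal of 15.45 in the Scriptaid channel against 15.76 in the Nullscript channel. Ccnd1, which stands in the renal vesicle list, the response list and the list of genes that fall with HDAC inhibitors, had 13.48 against 11.58. In sums without the brightest marker of each list, added after the values were seen, stroma had 15.48 to 15.67 in the Scriptaid channel against 14.58 to 14.76 in the Nullscript channel and renal vesicles 13.98 to 14.11 against 13.40 to 13.61. Nephron progenitors had 14.90 to 14.99 against 13.89 to 13.99, and the ureteric bud sums overlapped at 13.94 to 14.16 against 13.84 to 14.02.

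Endothelial markers were higher in 4 of 5, with sums of 13.83 to 13.89 in the Scriptaid channel against 13.00 to 13.23 in the Nullscript channel. Macrophage markers were higher in 2 and lower in 1 of 5, neuronal markers higher in 1 and lower in 2 of 5, and red blood cell markers lower in 2 of 5. Their sums were 12.46 to 12.75 against 12.10 to 12.51, 11.88 to 12.06 against 11.45 to 11.65, and 14.67 to 15.40 against 14.96 to 15.56. No tested marker was at 0, since arrays give a signal to every probe. Without the brightest marker, endothelium had 13.27 to 13.38 in the Scriptaid channel against 12.12 to 12.48 in the Nullscript channel, macrophage sums overlapped at 11.93 to 12.28 against 11.40 to 11.96, and neuronal sums turned to 10.01 to 10.31 against 10.72 to 11.00. Red blood cell sums overlapped in both forms, at 12.67 to 13.39 against 12.93 to 13.40 without the brightest. The part of cell makeup in the ratios of the FGF members was not tested.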

How the data were processed

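Per the labels, RNA of E13.5 kidneys given Scriptaid or Nullscript shared each of 6 arrays. The series text mentions 4 arrays with 2 swapped, whereas 6 arrays with 3 in each dye orientation were read here, by their own dye fields. The deposited scanner files came, per the file headers, out of the software Agilent Feature Extraction 9.1.3.1. They hold the intensity of every spot, its local background and a deposited log10 ratio, red (Cy5) divided by green (Cy3). The deposited value table holds log10 ratios; its columns equal the Scriptaid channel over the Nullscript channel within 4.82e-06, uncentred, with medians from -0.0112 to -0.00298.

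Mean intensities were corrected with normexp (offset 50 over the median local background) and normalised by loess within arrays (limma 3.58.1 under R 4.3.3). Control spots carried no weight in the loess, and outlier spots were dropped. Spots of a probe, then the 2 arrays of a replicate, were averaged, and the mean of 3 replicates was tested against 0 by lmFit and eBayes with Benjamini-Hochberg adjustment. Signals per drug were scaled between arrays (Aquantile). Testing required a probe to be well above background, for either drug, on 3 or more of the 6 arrays, and a gene was read by its brightest probe. Errors cover the 3 replicates only, whose number limits the precision.

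The labels give the same biological replicate number to both arrays of a dye pair. Once the mean of each orientation was subtracted, the arrays of such a pair correlated at 0.61 (replicate 1), 0.13 (replicate 2) and 0.012 (replicate 3). The members, the pathway and marker lists and the tests were chosen with earlier results of these data known. Genes named with values are the 15 called members with the largest ratios and the same sign in all replicates, 23 members taken by name, members whose probes differ in call or sign, and up to 4 called genes per pathway list. A gene that the rule takes is counted but not reported here. Fgf3, Fgf12, Fgf15, Fgf17, Fgf21, Fgf23, Spred3 and Spry3 and the response genes Dusp2, Dusp14, Elk3, Bhlhb2 and Phlda1 fall outside this and were named after their values were seen. So were Eya1, Wt1, Hist1h1c and the markers Ret, Emx2, Gata3, Calb1, Wnt9b, Cdh1, Wnt11, Osr1, Pax8, Pdgfra and Col1a1. The 18 alternatives changed background correction, normalisation, the source of the ratio, filters, probes, replicates, dyes, block and slide.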

Additional observations from a re-analysis of the deposited data

Results flagged for a closer look

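For 3 members every array of one dye orientation lay on one side of 0 and every array of the other on the opposite side. Spry3 had a mean log2 ratio of -0.0588 on the arrays with Scriptaid in Cy3 and 0.0567 on those with Scriptaid in Cy5. Fgf14 had -0.0914 with Scriptaid in Cy3 and 0.0412 with Scriptaid in Cy5, and Fgf1 had 0.059 with Scriptaid in Cy3 and -0.0784 with Scriptaid in Cy5. The difference between the orientations was not tested. Such opposite sides were found for 1937 genes, 7.24% of all tested, and none of the 3 members was called over both orientations.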

How the results depend on the processing

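Of the 18 called members, 8 kept their call and direction under all 18 alternatives: Etv1, Etv4, Fgf10, Fgf11, Fgf18, Spred2, Spry1 and Spry2, whose absolute ratios were 0.50 or higher. The other 10 had ratios of at most 0.43 in size and lost the call at least once. Etv1, Etv4, Fgf10, Fgf18 and Spry1 are each read by 1 probe, so no alternative could show how their calls depend on the probe. The second probe of Spred2 was called in the same direction. No alternative read the second probe of Fgf11 or Spry2 alone. By that probe neither gene was called, with ratios of -0.02 (adjusted p = 0.792) for Fgf11 and -0.03 (adjusted p = 0.567) for Spry2. Fgf7 turned to -0.0008 (adjusted p = 0.991) under median centring in place of loess. The 12 higher and 6 lower member calls became 7 higher on the arrays with Scriptaid in Cy3 alone and 3 lower with the slide as a block. In these settings 20.1% of all probes were higher and 16.6% lower, respectively. With 1 probe a gene, where fewer probes are tested, 6022 of 26765 genes were higher, against 9244 of 39392 probes. Without 1 replicate, 6 to 12 members were higher and 2 to 5 lower, and the member median was 0.028 to 0.0664. Over all, 6322 to 8603 of 39331 to 39354 probes were higher and 5323 to 7777 lower. The lowest counts came without replicate 3, which left the slide of replicates 1 and 2, and the highest median without replicate 1. The fit of 6 arrays with a replicate block takes the pairing of arrays from the labels, with a shared correlation of 0.119. At that low value the 6 arrays count nearly as separate replicates, so its adjusted p values do not rest on the 3 replicates alone. This fit called 13 members higher and 7 lower, against 9855 and 8985 of 39401 probes. It lost Fgf12 (adjusted p = 0.0501) and gained Fgf13 (adjusted p = 0.017), Fgf20 (adjusted p = 0.0113) and Spred3 (adjusted p = 0.0406), and changed no other member's call. Without the block the member counts were 14 and 7, against 10129 and 9474 of 39401 probes. Signal limits Fgf2, Fgf3 and Fgf7, whose probes are dim, and Fgf16, which was not well above background. It also limits Fgf5 and Fgf22, whose brightest probes had mean log2 signals of 7.38 and 7.39. The Fgf22 probe that was called was dimmer, at 6.78.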
